A study of Mus musculus with 30 samples.

Results

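The proteasome is the protease complex that destroys ubiquitin-tagged proteins. The transcripts of 48 genes for its subunits, activators and assembly chaperones were followed in 8-cell mouse embryos after knockdown of Yy1. They are all rows of the deposited table of 49585 genes whose symbol reads Psm, a letter from a to g, and a number. The embryos came from BDF1 x BDF1 matings (BDF1 is a hybrid of the C57BL/6 and DBA/2 strains), were cultured in KSOM medium and were collected at the 8-cell stage. The groups were 2 RNA libraries after Yy1 knockdown with siRNA 1 and 2 libraries after control knockdown. The labels give neither the number of embryos in a library nor whether replicates came from separate collections, so the p-values cover library-to-library spread alone, part or all of which may be technical. The other 26 of the 30 samples of the series were not analysed here.

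In the core particle, named 20S, 2 outer rings of alpha subunits gate the entry to 2 inner rings of beta subunits, 3 of which carry the cutting sites. The 19S cap recognises ubiquitin chains and removes them, and a ring of 6 ATPases in its base unfolds the substrate and threads it into the core. Chaperones named PAC assemble the rings, other chaperones assemble the base, and activators such as PA28 open the core without the cap. In the early embryo, degradation of maternal proteins is a known task of this system.

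The values are FPKM, fragment counts scaled by gene length and by library size, from libraries of 34074291 and 29302489 fragments after Yy1 knockdown and 34429515 and 31405476 fragments after control knockdown. Yy1, which encodes the zinc finger transcription factor that was targeted, had 5.89 and 7.98 FPKM in the Yy1 knockdown libraries, against 77.7 and 71.2 FPKM in the control libraries. Markers of the 8-cell embryo were present, with 9 of 10 above a mean of 1 FPKM, led by Dppa3 at 1985 to 2128 FPKM, while Sox2 stayed at or below 0.186 FPKM. Of 14 cumulus and granulosa cell markers 6 were listed at 0 throughout, and the list summed to 8.50 and 7.95 FPKM after Yy1 knockdown against 5.71 and 5.37 FPKM after control knockdown, nearly all of it Amhr2. Blood cell markers summed to at most 1.75 FPKM and sperm markers to at most 6.39 FPKM in a library. The part of these markers in the results below was not tested.

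The summed level of proteasome transcripts overlapped between the groups, while single members of several subcomplexes were lower in both Yy1 knockdown libraries. Summed over the 48 genes, the level was 1821 and 1969 FPKM in Yy1 knockdown libraries and 1932 and 2062 FPKM in control libraries. Among members with a mean of at least 1 FPKM, the lowest by the log2 fold change defined below were the ATPases Psmc3 and Psmc6. By the ratio of group means, the base chaperone Psmd5 (0.503) lay below Psmc6 (0.539). The highest were Psme1 and Psme2, which encode the alpha and beta chains of the activator PA28. Psme2 reached that mean only through its knockdown libraries, which leaves Psme1. Of the 44 members with a mean of at least 1 FPKM, 39 had group means within 1.5-fold of each other. The other 5 are 11.4%, against 18.6% of all genes tested. Differences are given as log2 fold changes, Yy1 knockdown over control, of log2(FPKM + 1), a scale that understates the change of low genes. In whole embryos, fewer cells of a type and less RNA per cell cannot be told apart.

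No member passed the test across all genes. With limma, 0 of 12120 genes (0.0%) had a Benjamini-Hochberg adjusted p under 0.05, and the smallest adjusted p of a member was 0.338, for Psmc6. The targeted gene Yy1, whose control mean was 10.7 times its knockdown mean, did not pass either (limma adjusted p = 0.0556), so missing this threshold does not show that a member did not differ. At an unadjusted p under 0.05, 7 members were lower (15.9% of the 44, against 4.69% of all genes tested) and 2 were higher (4.55%, against 4.22% of all genes tested). Of these 2, Psme2 reached the filter only through its knockdown libraries, which leaves Psme1. By limma-voom on fragment counts recovered from the values these counts were also 7 and 2, against 5.73% and 4.76% of all genes tested. Called at an adjusted p under 0.05 were 0 members by limma-voom, against 0.107% of all genes tested, and 0 members by limma among protein-coding genes alone, against 0.17%. At an unadjusted p under 0.05 by limma, in either direction, there were 9 of the 44 members, Psme2 included, against 8.9% of all genes tested. The count was smaller in every fit that left 1 library in a group. The share over all genes in those fits is not given, so whether the drop is particular to the members was not tested.

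By direction alone 25 members were lower, against 46.8% of all genes tested, and 19 were higher, against 53.2%. Over the 44 members the median log2 fold change was -0.05, against 0.02 over all genes tested. It was 0.04 without control knockdown replicate 2, so the direction of this small median is set by 1 library. Both Yy1 knockdown libraries lay below both control libraries in 14 members (31.8%, against 18.9% of all genes tested) and above both in 10 (22.7%, against 21.8%), and the groups overlapped in the other 20, where 40.7% of all genes tested had groups apart in either direction. The standard error of a member's log2 fold change had a median of 0.16, so differences near that size could not be told from the spread between libraries.

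**Figure D1:**
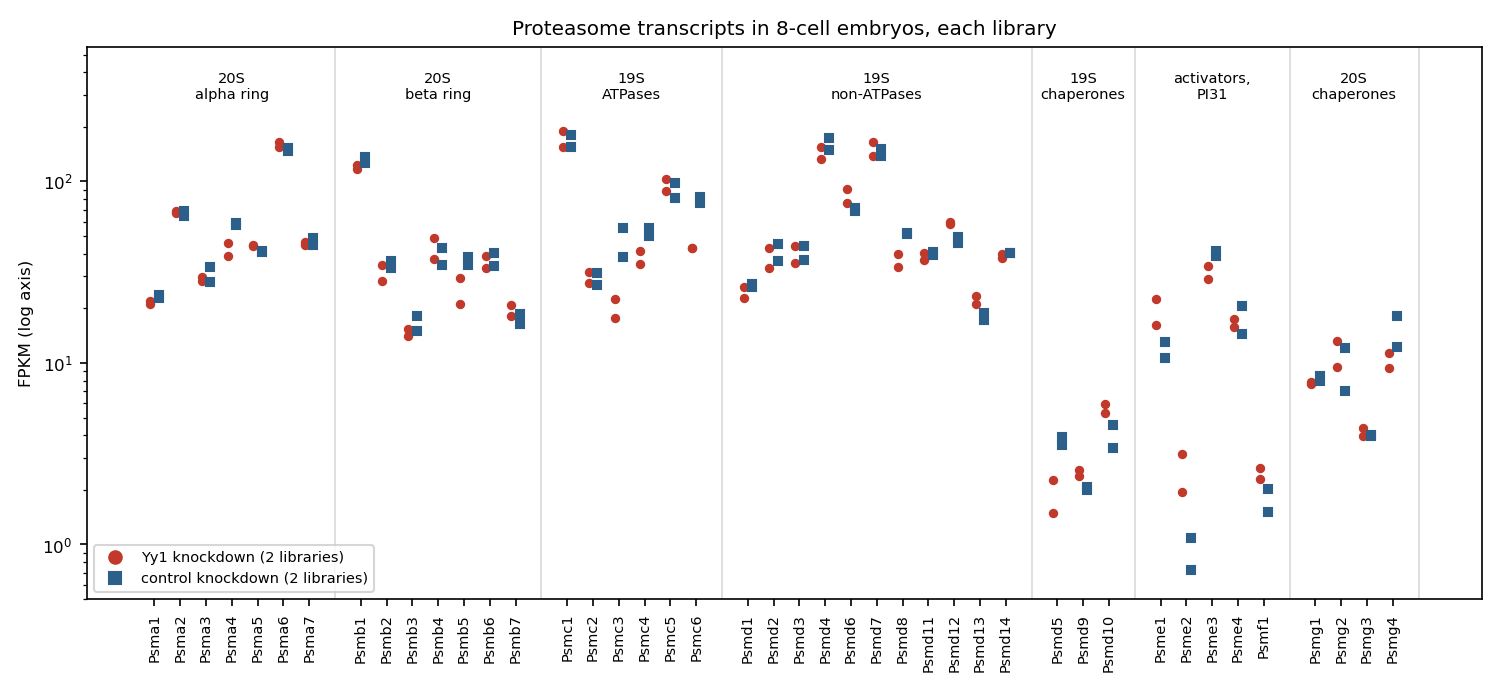
FPKM on a log axis of 43 proteasome transcripts (Psmb10, an immunoproteasome subunit, is left out), with each library as a point, 2 after Yy1 knockdown (circles) and 2 after control knockdown (squares). Core and cap subunits lie between 14.1 and 190 FPKM, while the base chaperones, Psme2, Psmf1 and Psmg3 lie below 6 FPKM.

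**Figure D2:**
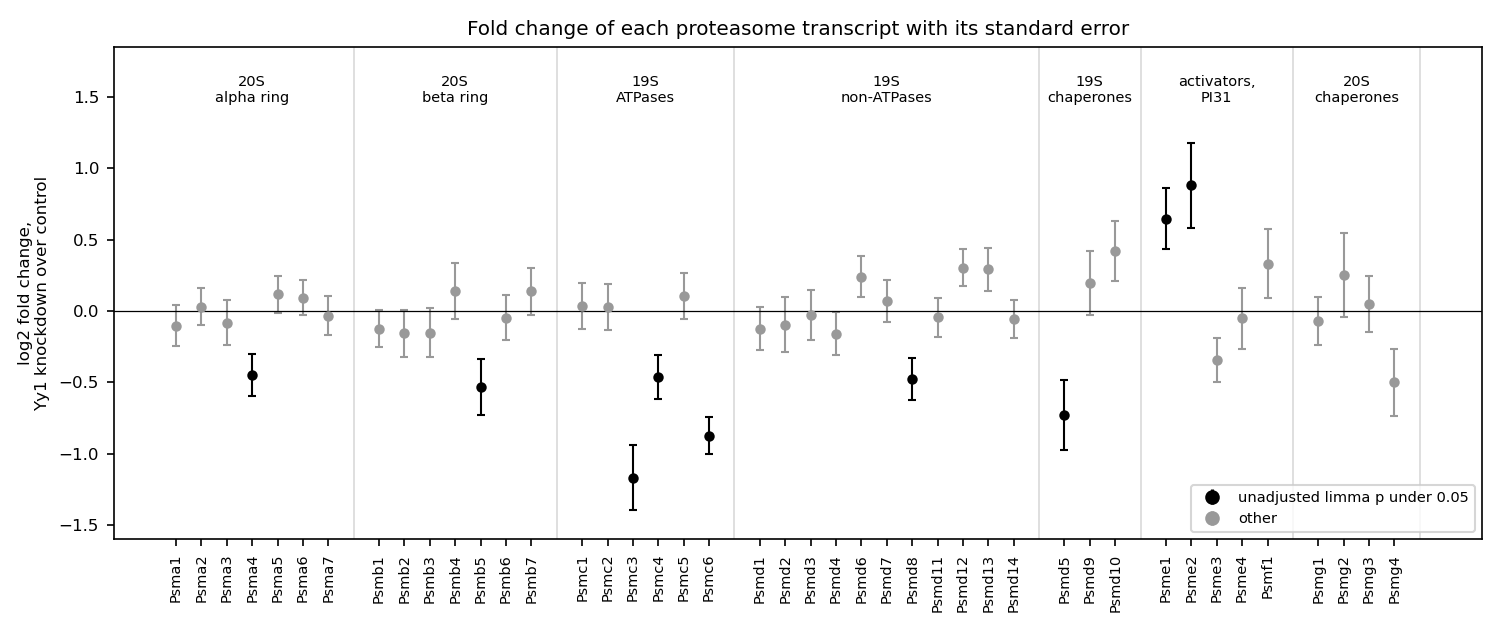
Log2 fold change, Yy1 knockdown over control, of the same 43 transcripts with its standard error from limma, in black where the unadjusted p is under 0.05. Black points below 0 occur in the alpha ring, the beta ring, the ATPases, the non-ATPases and the 19S chaperones, and both black points above 0 are the PA28 genes Psme1 and Psme2, the second of which reached the filter only through its knockdown libraries.

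The promoter windows of the lower members are shown because YY1 is a transcription factor and because matches to its binding letters occur in them, some after the start. RefSeq windows of GRCm38.p6, from 250 bases before to 50 bases after a gene's start, were found for 40 of the 48 members and searched on both strands for AANATGGC, a form of the YY1 consensus, and for its core ATGGCG. The 2 strings overlap where the first is followed by G. AANATGGC stood in 6 of the 40 members (15.0%), against 11.6% of tested genes with a window and 6.05% of all 32851 windows. ATGGCG stood in 11 of the 40 (27.5%), against 19.6% of tested genes with a window and 8.93% of all windows. A window of each lower member in the RefSeq table follows, with matches in capitals, and then that of Psmc5, which holds a match too and differed little between the groups. The stretches run from 100 bases before to 50 after the start, except that of Psmc4, whose matches lie farther upstream, between 250 and 151 bases before it. They lie at chr14:45329724-45329873 (plus strand) for Psmc6, chr7:28050243-28050342 (minus) for Psmc4, chr7:29180624-29180773 (minus) for Psmd8, chr2:34870913-34871062 (minus) for Psmd5, chr14:54617946-54618095 (minus) for Psmb5, chr9:54950759-54950908 (plus) for Psma4 and chr11:106256085-106256234 (plus) for Psmc5.
Psmc6: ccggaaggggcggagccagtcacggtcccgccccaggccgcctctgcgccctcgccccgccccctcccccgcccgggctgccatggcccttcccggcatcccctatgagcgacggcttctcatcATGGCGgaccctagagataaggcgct
Psmc4: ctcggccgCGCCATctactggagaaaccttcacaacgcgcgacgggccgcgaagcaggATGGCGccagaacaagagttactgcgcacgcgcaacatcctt
Psmd8: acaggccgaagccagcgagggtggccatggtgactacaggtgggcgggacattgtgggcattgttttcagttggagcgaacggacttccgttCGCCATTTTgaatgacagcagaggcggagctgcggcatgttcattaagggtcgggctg
Psmd5: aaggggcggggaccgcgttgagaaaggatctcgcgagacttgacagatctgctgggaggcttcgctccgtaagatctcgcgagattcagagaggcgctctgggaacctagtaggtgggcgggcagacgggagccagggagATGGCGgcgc
Psmb5: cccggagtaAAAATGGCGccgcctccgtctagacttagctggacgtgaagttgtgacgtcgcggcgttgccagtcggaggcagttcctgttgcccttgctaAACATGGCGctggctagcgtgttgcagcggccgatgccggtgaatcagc
Psma4: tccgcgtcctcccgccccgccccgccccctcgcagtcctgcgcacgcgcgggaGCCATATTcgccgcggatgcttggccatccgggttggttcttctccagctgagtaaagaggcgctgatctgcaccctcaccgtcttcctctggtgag
Psmc5: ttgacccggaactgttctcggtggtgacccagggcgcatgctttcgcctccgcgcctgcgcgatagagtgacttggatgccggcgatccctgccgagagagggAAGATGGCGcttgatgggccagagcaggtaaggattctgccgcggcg

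Either string stood in the window of 13 of the 37 tested members that have one (35.1%), and of 1604 of 6869 tested genes with a window (23.4%). All 6 lower members with an unadjusted p under 0.05 and a window were among the 13, and so were 7 of the 31 others. The remaining lower member, Psmc3, has no entry in the table. Members holding either string had a median log2 fold change of -0.13, and the 24 holding neither had one of -0.0041. The first median includes the 6 lower members. By direction alone, 9 of the 13 and 12 of the 24 were lower. The 13 ran from -0.88 to 0.30, and Psmd12 and Psmd13 among them were higher in both Yy1 knockdown libraries than in both controls. The 2 higher members, Psme1 and Psme2, held neither, but Psme2 reached the filter only through its knockdown libraries, which leaves 1 gene, Psme1. Over all tested genes with a window, 9.1% of those holding either string and 4.01% of the 5265 holding neither were lower at an unadjusted p under 0.05, and 2.87% and 3.63% were higher. These counts were not tested, and the motifs were chosen with earlier results of these data known. A match is only a run of letters. ATGGCG is also a start codon followed by an alanine codon, and which matches downstream of a start are such codons was not looked up. The only match of Psmc6, at position 25, and that of Psmd5, at position 41, are ATGGCG downstream of the start. Both may therefore be such codons and not promoter letters, and both are counted among the 6 lower members with a match. Psmb5 also holds ATGGCG downstream of the start, at position 5, besides upstream at position -88. Among members with an unadjusted p over 0.05, Psmc5, Psmb6 and Psma2 hold AAGATGGC, in all 3 downstream of the start.

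**Figure D3:**
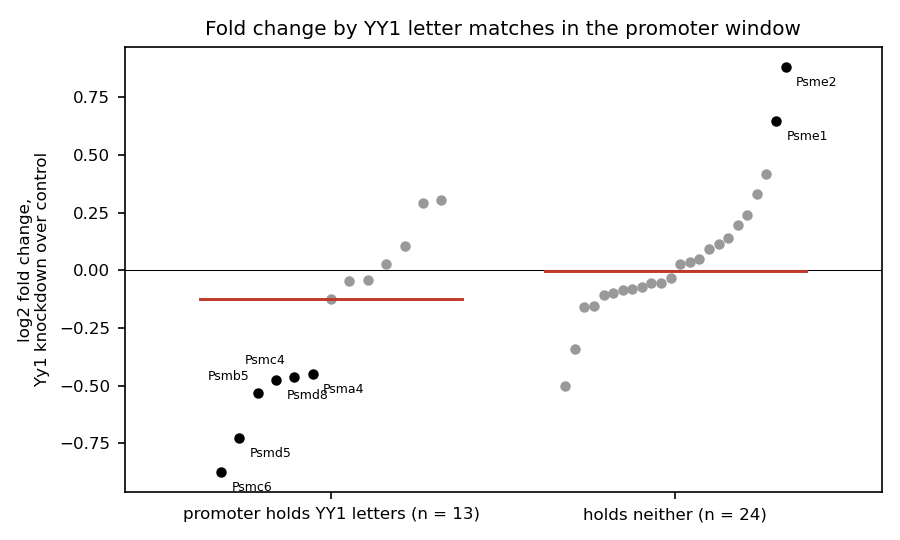
Log2 fold change, Yy1 knockdown over control, of 37 proteasome transcripts with a RefSeq promoter window, split into 13 whose window holds AANATGGC or ATGGCG and 24 whose window holds neither. Lines mark the medians, -0.13 and -0.0041, and black points have an unadjusted limma p under 0.05. The 6 black points on the left lie below 0, and the 2 on the right, Psme1 and Psme2, lie above it. Psme2 reached the filter only through its knockdown libraries.

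Among the ATPases of the 19S base, 3 of 6 were lower in both Yy1 knockdown libraries than in both controls, and the other 3 overlapped between the groups; over all genes tested the share lower in this way was 18.9%. Psmc6, which encodes the ATPase Rpt4 and lies on chromosome 14 from 45329823 to 45349074, had 42.8 and 42.7 FPKM in the Yy1 knockdown libraries, against 76.5 and 82.1 FPKM in the control libraries. The groups did not overlap, and the knockdown mean was 0.539 of the control mean. Its log2 fold change was -0.88 (standard error 0.13, limma adjusted p = 0.338), and it lay between -0.93 and -0.83 under the 13 alternatives run.

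Psmc3 encodes Rpt5, whose tail docks into the alpha ring and helps to open its gate. It lies on chromosome 2 from 91054016 to 91059438. Its values were 17.7 and 22.5 FPKM after Yy1 knockdown and 38.4 and 55.4 FPKM after control knockdown. Both knockdown libraries were below both controls, though the controls lay far apart, and the log2 fold change was -1.17 (standard error 0.23, limma adjusted p = 0.462). Without control knockdown replicate 1 it was -1.43, and without replicate 2 of that group it was -0.91. With limma-voom the adjusted p values of Psmc3 and Psmc6 were 0.0966 and 0.0989, and with protein-coding genes alone the limma adjusted p values were 0.115 and 0.0624.

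Psmc4, which encodes Rpt3, had 41.3 and 35.0 FPKM in Yy1 knockdown libraries, against 55.7 and 50.1 FPKM in control libraries. Its groups did not overlap either, with a log2 fold change of -0.46 and a standard error of 0.15 (limma adjusted p = 0.532). The other 3 ATPases showed values that overlapped between the groups. Psmc1 (Rpt2) had 155 and 190 FPKM after Yy1 knockdown and 155 and 181 FPKM after control knockdown, and Psmc2 (Rpt1) 27.7 and 31.7 FPKM against 26.9 and 31.4 FPKM. Psmc5 (Rpt6) had 88.8 and 103 FPKM against 80.7 and 97.8 FPKM.

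The order of the 6 ATPase levels differed between the groups at its lower end. In both groups Psmc1 was highest, followed by Psmc5 and Psmc6. In both Yy1 knockdown libraries Psmc3 was the lowest of the 6, whereas in both control libraries Psmc2 was the lowest. Psmc3 stood at 63.9% and 71.0% of the level of Psmc2 in the Yy1 knockdown libraries, against 142.5% and 176.6% in the control libraries. The highest ATPase level was 8.80 and 8.42 times the lowest after Yy1 knockdown, and 5.75 and 5.77 times the lowest after control knockdown.

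**Figure D4:**
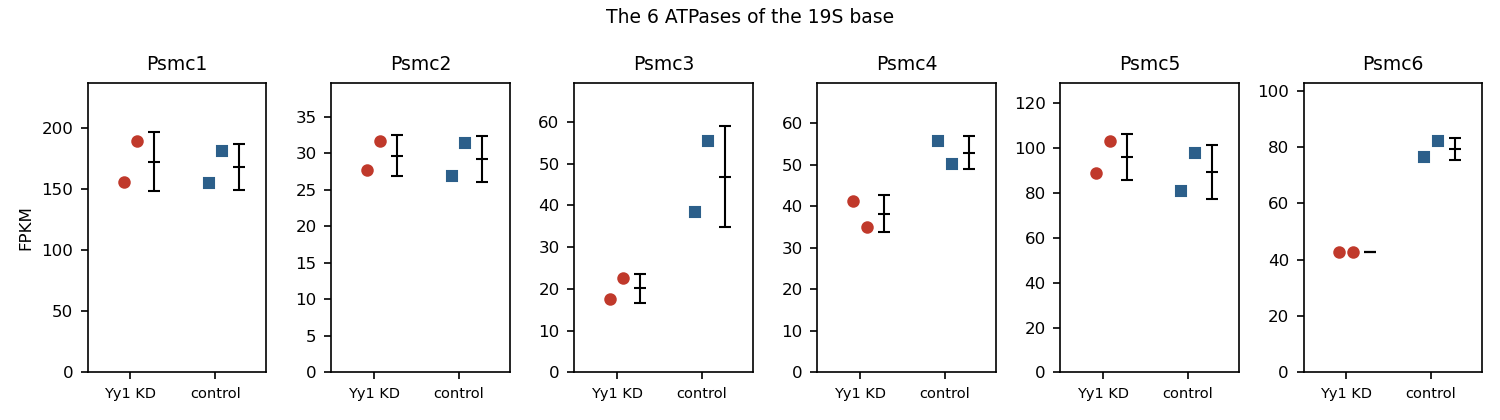
FPKM of the 6 ATPase transcripts in each library, Yy1 knockdown left and control knockdown right, with the mean and SD (n = 2 each) beside the points and each axis starting at 0. Psmc3, Psmc4 and Psmc6 are lower in both Yy1 knockdown libraries than in both controls, and Psmc1, Psmc2 and Psmc5 overlap.

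The 11 non-ATPase subunits of the cap were mixed, 7 of them on the lower and 4 on the higher side of 0, and their median log2 fold change was -0.04. That median was 0.08 without Yy1 knockdown replicate 1 and 0.05 without control knockdown replicate 2. Psmd8, which encodes the lid subunit Rpn12, had the smallest p of these 11. It had 40.0 and 33.8 FPKM after Yy1 knockdown and 51.5 and 51.7 FPKM after control knockdown. The groups did not overlap (log2 fold change -0.48, standard error 0.15, limma adjusted p = 0.531).

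Other lid transcripts lay on the higher side. Psmd12, for the lid subunit Rpn5, had 58.6 and 59.6 FPKM in Yy1 knockdown libraries, against 46.1 and 49.4 FPKM in control libraries (log2 fold change 0.30, standard error 0.13, limma adjusted p = 0.583). Psmd13 (Rpn9) had 21.1 and 23.3 FPKM against 17.2 and 18.7 FPKM, and Psmd6 (Rpn7) 76.4 and 90.5 FPKM against 71.5 and 69.1 FPKM. In these 3 genes both knockdown libraries were above both controls, which is 27.3% of the 11 non-ATPases, against 21.8% of all genes tested. Another 3 of the 11 (27.3%) were below both controls, against 18.9% of all genes tested. Psmd14, for the deubiquitinase Rpn11 that removes ubiquitin chains, had 39.8 and 37.7 FPKM after Yy1 knockdown and 40.5 and 40.1 FPKM after control knockdown. The ubiquitin receptor Psmd4 (Rpn10) and the lid subunit Psmd7 (Rpn8) were the highest of the class, at 133 to 173 FPKM and 138 to 165 FPKM over the 4 libraries, and their groups overlapped. The large base subunits Psmd1 and Psmd2 lay between 22.7 and 45.1 FPKM.

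In the 20S core, Psma4 and Psmb5 were the only standard subunits at an unadjusted p under 0.05 by limma, both lower. They are 2 of 14 (14.3%), against 4.69% of all genes tested that were lower at that p. The alpha ring summed to 401 and 422 FPKM after Yy1 knockdown and 408 and 426 FPKM after control knockdown, and the beta ring to 286 and 294 FPKM against 308 and 318 FPKM. Psma4, which encodes the alpha ring subunit alpha3, had 39.0 and 45.9 FPKM in Yy1 knockdown libraries, against 58.8 and 57.7 FPKM in control libraries. Its groups did not overlap, and its log2 fold change was -0.45 (standard error 0.15, limma adjusted p = 0.532). Psma6 was the highest alpha subunit, at 147 to 165 FPKM, and Psma1 the lowest, at 21.0 to 23.7 FPKM.

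Psmb5 encodes beta5, which carries the chymotrypsin-like cutting site and is the main target of proteasome inhibitor drugs. It had 21.2 and 29.4 FPKM after Yy1 knockdown, against 34.8 and 38.5 FPKM after control knockdown. The groups did not overlap (log2 fold change -0.53, standard error 0.20, limma adjusted p = 0.544), and the value ran from -0.31 without Yy1 knockdown replicate 1 to -0.76 without replicate 2 of that group. The subunits with the other cutting sites overlapped between the groups. Psmb6 (beta1, caspase-like) had 33.5 and 38.6 FPKM against 34.4 and 40.2 FPKM, and Psmb7 (beta2, trypsin-like) 20.8 and 18.1 FPKM against 16.4 and 18.7 FPKM. Psmb1 led the beta ring at 117 to 136 FPKM and Psmb3 was its lowest member at 14.1 to 18.1 FPKM.

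Subunits that replace standard ones in particular tissues were nearly silent. Psmb8 (beta5i), which takes the place of beta5 in the immunoproteasome of antigen-presenting cells, was listed at 0 FPKM in all 4 libraries. Psmb9 (beta1i) was listed at 0 in both Yy1 knockdown libraries, against 0.206 and 0.0261 FPKM in the control libraries, values that rest on 26 and 3 fragments. Psmb10 (beta2i) was the one immunoproteasome subunit above 1 FPKM, at 1.77 and 1.48 FPKM after Yy1 knockdown and 1.58 and 2.00 FPKM after control knockdown, from 74 to 107 fragments. It stood at 8.54% and 8.19% of the level of Psmb7 in Yy1 knockdown libraries, against 9.66% and 10.7% in control libraries. The thymus subunit Psmb11 reached at most 0.123 FPKM and the testis subunit Psma8 at most 0.161 FPKM.

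The activators went in different directions. Psme1, for PA28 alpha, lies on chromosome 14 from 55578494 to 55581527 and had 16.3 and 22.4 FPKM in Yy1 knockdown libraries, against 10.7 and 13.1 FPKM in control libraries. Its group means were 1.62-fold apart (log2 fold change 0.65, standard error 0.22, limma adjusted p = 0.532), and leaving out Yy1 knockdown replicate 2 brought that log2 value to 0.43. Psme2, for its partner PA28 beta, lies on chromosome 14 from 55587440 to 55591101. It had 1.95 and 3.13 FPKM after Yy1 knockdown and 1.09 and 0.722 FPKM after control knockdown, from 117 and 162 fragments against 66 and 40. Psme2 passed the filter through the knockdown libraries, its control mean being 0.904 FPKM. Its log2 fold change of 0.88 (1.38 with a pseudocount of 0.1) is therefore a description, and no p-value of it is printed. Psme2 is still counted among the higher members at an unadjusted p under 0.05 by limma and by limma-voom.

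Both PA28 genes were higher in both Yy1 knockdown libraries than in both controls. They lie near each other on the chromosome, and both are known as interferon-inducible genes, as are the immunoproteasome genes, of which Psmb8 and Psmb9 were at or near 0 and Psmb10 had 1.48 to 2.00 FPKM with groups that overlapped. Psme2b, a row with a closely similar name to Psme2 and outside the 48, had 0.982 and 1.02 FPKM after Yy1 knockdown and 0.0347 and 0.457 FPKM after control knockdown. How the authors' counting divided reads between similar copies is not stated in the labels, so Psme2 is uncertain. Psme1 overlaps Emc9 in RefSeq coordinates, and the strand setting of the counting is likewise not stated.

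The nuclear activator PA28 gamma, encoded by Psme3, lay on the other side. It had 34.1 and 28.8 FPKM after Yy1 knockdown and 41.2 and 39.0 FPKM after control knockdown, with no overlap (log2 fold change -0.34, standard error 0.15, limma adjusted p = 0.591), and leaving out Yy1 knockdown replicate 2 brought its log2 value to -0.23. Relative to Psme1, its level was 209.6% and 128.8% in Yy1 knockdown libraries, against 385.4% and 297.1% in control libraries. Psme4, for the activator PA200, had 17.6 and 15.7 FPKM against 20.7 and 14.4 FPKM, groups that overlapped. Psmf1, for the regulator PI31, had 2.31 and 2.64 FPKM against 2.02 and 1.51 FPKM.

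**Figure D5:**
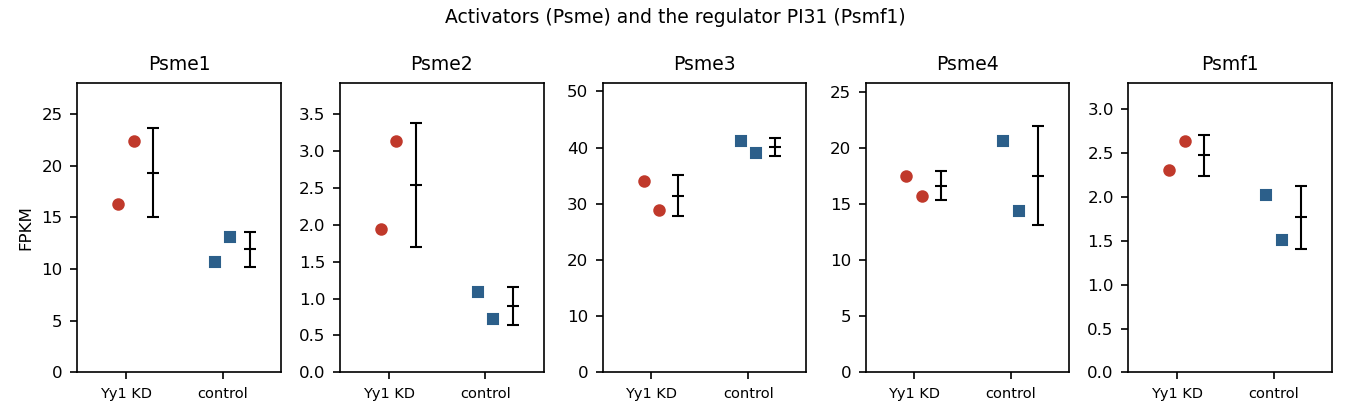
FPKM of the activator transcripts Psme1 to Psme4 and of Psmf1 in each library, Yy1 knockdown left and control knockdown right, with the mean and SD (n = 2 each) beside the points and each axis starting at 0. Psme1, Psme2 and Psmf1 are higher in both Yy1 knockdown libraries than in both controls, Psme3 is lower in both, and Psme4 overlaps.

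The chaperones of the 19S base lay between 1.49 and 5.92 FPKM, below every standard core and cap subunit. Psmd5, Psmd9 and Psmd10 carry the symbols of cap subunits but encode the base chaperones S5b, p27 and gankyrin, which bind ATPases and leave the finished particle. Psmd5 had 2.26 and 1.49 FPKM in Yy1 knockdown libraries, against 3.54 and 3.90 FPKM in control libraries. Its groups did not overlap, and the knockdown mean was 0.503 of the control mean (log2 fold change -0.73, standard error 0.25, limma adjusted p = 0.532). Psmd10 lay on the higher side, at 5.31 and 5.92 FPKM after Yy1 knockdown and 3.42 and 4.53 FPKM after control knockdown, and Psmd9 at 2.38 and 2.56 FPKM against 2.07 and 1.99 FPKM. Psmd10 overlaps Atg4a in RefSeq coordinates.

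Of the 4 chaperones of the 20S rings, Psmg4 (PAC4) had the smallest p. Its groups did not overlap, at 9.38 and 11.3 FPKM after Yy1 knockdown and 18.2 and 12.3 FPKM after control knockdown (log2 fold change -0.50, standard error 0.23, limma adjusted p = 0.604), and its log2 fold change was -0.24 without control knockdown replicate 1 and -0.77 without replicate 2 of that group. Psmg2 (PAC2), the partner of PAC1, had groups that overlapped, with values between 7.01 and 13.2 FPKM over the 4 libraries. Psmg1 (PAC1) lay between 7.69 and 8.46 FPKM and Psmg3 (PAC3) between 3.94 and 4.37 FPKM over the 4 libraries.

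Genes that work with the proteasome but have no Psm symbol were fitted in the same model. Of 10 partners, such as the maturation factor Pomp and the ubiquitin receptor Adrm1, 9 were tested. Their median log2 fold change was 0.02, with 4 on the lower and 5 on the higher side. The ubiquitin ligase Ube3c, which extends chains on substrates held by the proteasome, had the smallest p among them, at 4.84 and 4.71 FPKM in Yy1 knockdown libraries, against 7.56 and 7.16 FPKM in control libraries (limma adjusted p = 0.532). AI314180, an older symbol of the cap-binding scaffold Ecpas, had 10.7 and 12.1 FPKM against 12.6 and 15.6 FPKM.

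Among regulators of proteasome genes, Nfe2l1, the factor known to induce proteasome genes when the proteasome is inhibited, had 20.1 and 20.5 FPKM after Yy1 knockdown and 16.8 and 22.4 FPKM after control knockdown. The 9 tested regulators had a median log2 fold change of 0.10, 2 on the lower and 7 on the higher side. Of them 0 had an unadjusted p under 0.05 by limma, against 8.9% of all genes tested in either direction. By smallest p they were led by Nfyb, a subunit of the CCAAT-binding factor NF-Y, at 27.2 against 22.2 FPKM, and Maff, a small partner protein of NFE2L1, at 1.71 against 1.17 FPKM (means of 2 libraries each; limma adjusted p = 0.674 and 0.770).

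Of 14 ubiquitin genes, E1 enzymes and shuttle factors, 11 lay on the lower and 3 on the higher side (median -0.08), and 1 of the 14 (7.14%) was lower at an unadjusted p under 0.05, against 4.69% of all genes tested. Uba1, the main enzyme that activates ubiquitin, had 71.2 and 60.3 FPKM in Yy1 knockdown libraries, against 92.2 and 98.5 FPKM in control libraries, with no overlap (log2 fold change -0.53, standard error 0.15, limma adjusted p = 0.502). Nploc4, an adaptor of the unfolding enzyme VCP, followed at 16.7 and 12.1 FPKM against 17.2 and 23.0 FPKM. The ubiquitin gene Ubb stood at 411 to 588 FPKM over the 4 libraries, and its groups overlapped.

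Complexes built like parts of the proteasome were looked at in the same fit. The COP9 signalosome shares its architecture with the lid, and 1 of its 10 tested genes was lower at an unadjusted p under 0.05, against 4.69% of all genes tested. This was Cops2, at 23.0 and 23.2 FPKM after Yy1 knockdown and 30.2 and 31.4 FPKM after control knockdown (limma adjusted p = 0.532). Of the 8 genes of the CCT chaperonin, a double ring that folds proteins, 0 passed in either direction, against 8.9% of all genes tested. Cct4, with the smallest p of the 8, had 57.7 and 58.1 FPKM against 52.4 and 46.5 FPKM. The median log2 fold change was 0.07 for COP9 and 0.06 for CCT, against -0.05 for the proteasome genes. The difference between these lists was not tested.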

How the data were processed

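Per the labels' protocols, a stranded SMART-Seq kit was used to make libraries of total RNA from 8-cell embryos. The authors deposited FPKM per gene. Tools listed in the submitters' processing notes are HISAT2 2.2.1, Bowtie2 2.4.3, featureCounts, Trim Galore 0.6.7, bedtools, SAMtools 1.4.1 and R 4.0.3. The build listed is mm10. The sources used here do not give which tool served which assay, the strand setting, the annotation or the treatment of multi-mapping reads.

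The 12120 genes whose mean over the 4 libraries reached 1 FPKM entered the fit, on log2(FPKM + 1), with limma 3.58.1 in R 4.3.3, group alone, a mean-variance trend and two-sided p-values adjusted after Benjamini-Hochberg over all genes tested. Whole fragments were recovered from the steps between values within 0.02 fragments, for 12120 of 12120 genes, and used for depth and for limma-voom. Since PCR duplicates molecules, depth speaks to counting error only. Fit and recovery were tested on simulated data. Promoter windows and coordinates come from RefSeq, GRCm38.p6, the assembly behind mm10.

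The members, lists and motifs were chosen with earlier results of these data known. Fold changes with standard errors are given for the 12 members with the smallest p, save Psme2, and up to 2 genes of each other list are named by smallest p, apart from genes named for their role. Alternatives changed the filter (none, or 5 FPKM), the pseudocount (0.1), the scaling (median ratio or quantile), the shrinkage (robust eBayes) or the genes (protein-coding alone), added a replicate block, left out each library in turn, or used limma-voom.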

Additional observations from a re-analysis of the deposited data

How the results depend on the processing

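Under the 13 alternatives run, each of the 12 members with the smallest p kept its direction wherever it could be fitted. Psme2 is among the 12, but it passed the filter through its knockdown libraries, so its direction is a description alone. Of the other members, none passed an adjusted p of 0.05 in the alternatives that kept all libraries. The count of genes called over the whole table was 0 with all libraries, 4 with a filter of 5 FPKM, 1 with robust eBayes, 14 with protein-coding genes alone and 13 with limma-voom, and no proteasome gene was among them. Fewer genes were tested with the 5 FPKM filter and with protein-coding genes alone, and the fit was made anew on them. The cause of the differences in these counts was not tested. With protein-coding genes alone, 12 proteasome genes had an unadjusted limma p under 0.05 (9 lower, 3 higher). The share of all genes at that p in this fit is not given, so the 12 is a description alone. Leaving out 1 library, the number of proteasome genes at an unadjusted p under 0.05 ran from 3 to 7, against 9, and their median log2 fold change from -0.0755 to 0.0434, against -0.0458. Such fits take the spread of the lone library from the other group. With the 5 FPKM filter Psmd5 and Psme2 were not tested.

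The titles number replicates 1 and 2 in both groups without saying what a number marks. Deviations of same-numbered libraries correlated by 0.0994. With a replicate block 0 genes were called, 10 proteasome genes (8 lower, 2 higher) had an unadjusted p under 0.05, and the median was -0.0458. The share of all genes at an unadjusted p under 0.05 in that fit is not given, so the 10 is a description alone.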

Other observations

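Letters of 2 other factors were searched in the same promoter windows. TGACNNNGC, the core of the antioxidant response element that NFE2L1 and NFE2L2 bind, stood in the windows of 6 of 40 proteasome genes (15.0%), against 17.0% of tested genes with a window and 12.4% of all windows. The holders were Psmb5, Psmb6, Psmc6, Psmd12, Psmd9 and Psme4, of which Psmb5, Psmb6, Psmc6 and Psmd12 also hold YY1 letters, and Psmb5 and Psmc6 were lower after Yy1 knockdown at an unadjusted p under 0.05. CCAAT, the box bound by NF-Y, stood in the windows of 14 of 40 proteasome genes (35.0%), against 43.5% of tested genes with a window and 37.4% of all windows, and in none of the 6 lower members that have a window.

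Rows named as pseudogenes of proteasome genes were nearly silent. Psmb6-ps, Psmb6-ps2, Psmb5-ps and Psmb7-ps2 reached at most 0.326 FPKM in a library. Psmc3ip, which shares letters with Psmc3 but encodes a recombination factor, had 18.3 and 23.2 FPKM after Yy1 knockdown and 19.7 and 22.6 FPKM after control knockdown, while Psmc3 was lower in both Yy1 knockdown libraries.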
